A study of Xenopus laevis with 3 samples.

Results

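Meiotic recombination starts when the germ cell cuts its own chromosomes and ends when some of the breaks have become crossovers between homologs. The genes followed here act along that path and were taken by symbol from the first column of the deposited table, ordered from break formation to crossover: spo11, mei4, dmc1, meiob, msh4, msh5 and mlh3. They gave 8 rows out of 34694, since spo11 has an L and an S copy and each of the other 6 genes has an L row alone. Xenopus laevis, the African clawed frog, is an allotetraploid whose chromosomes come in an L and an S set, and .L and .S mark the copy of a gene on each.

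The samples were 3 poly-A RNA libraries of whole testis from untreated males of outcrossed laboratory stock, labelled as mixed testis, and all 3 form a single group without a treated, mutant or female counterpart. They differ in their labels by processing date and are called replicates 1, 2 and 3 in accession order. The labels do not say that the animals were separate, so any p-value measures only the spread between these samples, which may be technical. In bulk tissue, fewer cells of a type and less RNA per cell cannot be told apart.

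In vertebrates, SPO11 makes the breaks together with accessory proteins such as MEI4. The recombinase DMC1, helped by the single-strand binding protein MEIOB, then lets a broken end search the homologous chromosome. MSH4 and MSH5 form a clamp that stabilises the joined strands, and MLH3 belongs to the enzyme that cuts the joints into crossovers. The testis holds cells at every stage of this sequence, next to dividing spermatogonia, spermatids and somatic cells.

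Library totals lay between 61212304 and 70580016 counts, and a CPM is a count per 1000000 after TMM scaling of the library size. A row was called detected with at least 0.5 CPM and over 3 counts in all 3 libraries. By that rule 7 of the 8 recombination rows were detected, against 66.7% of all rows of the table. Of the marker rows, 13 of 18 for spermatogonia, 23 of 23 for spermatids, 17 of 20 for Sertoli and 10 of 10 for Leydig cells were detected. So were 12 of 12 smooth muscle and peritubular, 13 of 13 endothelial, 8 of 12 leukocyte, 7 of 11 erythrocyte and 6 of 12 oocyte rows. Detection by itself therefore does not single out the cell types of the testis. The libraries differed most in smooth muscle and peritubular markers, whose 12 rows summed to 119, 462 and 1263 TPM in replicates 1, 2 and 3. They differed in other lists too. In the same order, the Leydig rows summed to 618, 865 and 1552 TPM and the leukocyte rows to 83.2, 62.5 and 239 TPM. The erythrocyte rows summed to 137, 117 and 62.5 TPM, and the 23 spermatid rows to 3817, 4470 and 4314 TPM. TPM is the authors' abundance per length of gene model and is used below wherever genes are compared.

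By level, the detected members ran in a graded order, whose widest step, 3.07-fold, lay between meiob.L and spo11.L. The strand invasion genes dmc1.L and meiob.L were the most abundant, spo11.L, msh5.L and msh4.L followed, and mlh3.L and mei4.L were lowest. Together the 8 rows summed to 293, 284 and 261 TPM in replicates 1, 2 and 3. The share of dmc1.L and meiob.L in that sum was 71.1 ± 1.55% (SD, n = 3). The median of the 8 rows was 17.5 TPM, against 3.25 TPM over all rows of the table and 9.72 TPM over the detected rows. Below the latter were mlh3.L at 8.39 TPM and mei4.L at 7.75 TPM, besides spo11.S.

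**Figure D1:**
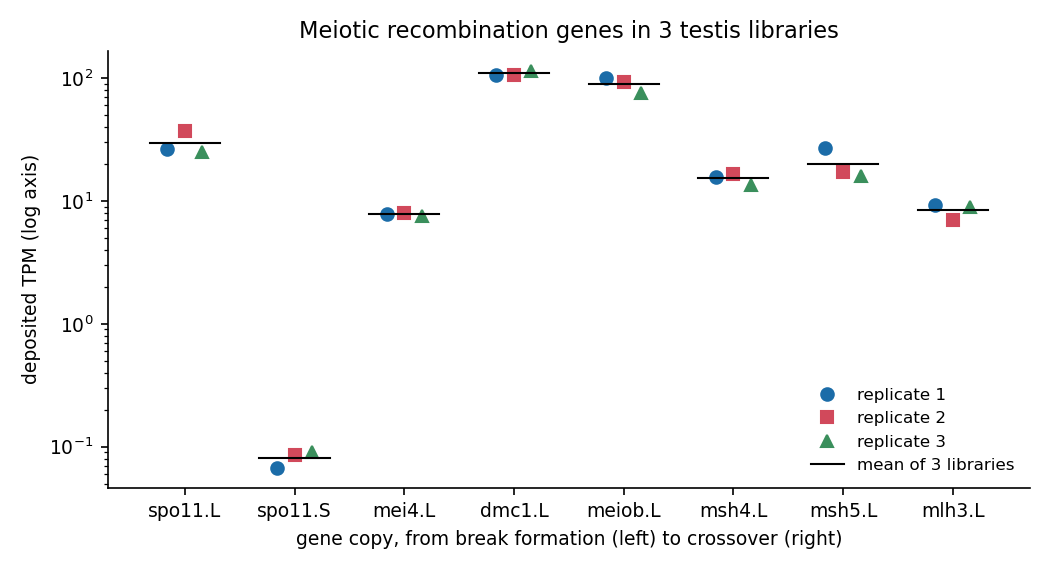
Deposited TPM on a log axis for each of the 8 gene copies, ordered from break formation to crossover, with 1 point per library and a bar at the mean. The points of dmc1.L lie between 105 and 115 TPM, those of mei4.L between 7.49 and 7.93 TPM, and those of spo11.S are all at or below 0.0900 TPM.

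Break formation was represented by spo11, the catalytic subunit that cuts the DNA, and mei4, which in mouse and yeast is needed for the cut. The row spo11.L stood at 26.3, 36.8 and 25.2 TPM in replicates 1, 2 and 3, from 2085, 2873 and 1777 counts. Replicate 2 was the high library, and the other two lay close together. Its mean of 29.4 ± 6.39 TPM (SD, n = 3) stood at percentile 83.4 of all rows. The row mei4.L gave 600, 599 and 511 counts, or 7.84, 7.93 and 7.49 TPM. Its coefficient of variation of 3.01% was the lowest of the detected members, and 1.46% of all detected rows had a lower one. Counting error alone at 511 to 600 counts is expected to be wider than 3.01%, so that rank does not show a steadier gene. With TMM-scaled counts per kilobase in place of TPM it was 7.04%, still the lowest of them, with 9.61% of rows lower.

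Strand invasion had the highest levels. The recombinase gene dmc1.L had 106, 105 and 115 TPM in replicates 1, 2 and 3, from 7172, 7006 and 6906 counts, with a coefficient of variation of 4.80%, or 9.60% with TMM-scaled counts per kilobase. The gene meiob.L, whose product binds single-stranded DNA and is related to the large subunit of RPA, had 100.3, 93.0 and 75.4 TPM, from 9312, 8527 and 6245 counts. In each library dmc1.L was above meiob.L in TPM, and their ranges did not overlap. The mean gap of 0.29 ± 0.28 on the log2 scale (SD, n = 3) was about as wide as its spread. In counts, meiob.L was above dmc1.L in replicates 1 and 2. The order in TPM there rests on the deposited lengths, 1026 bases for dmc1.L and 1413 for meiob.L. The means of dmc1.L and meiob.L, 109 and 89.6 TPM, stood at percentiles 95.5 and 94.4 of all rows.

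Crossover selection was represented by msh4 and msh5, the subunits of a clamp that has no known role in mismatch repair. The row msh4.L had 15.7, 16.6 and 13.4 TPM in replicates 1, 2 and 3, from 2691, 2802 and 2045 counts. The row msh5.L had 26.7, 17.1 and 15.9 TPM, from 4289, 2710 and 2272 counts. Replicate 1 stood apart for msh5.L and not for msh4.L, and msh5.L had a coefficient of variation of 29.8% on TPM, the highest of the detected members, against a median of 22.0% over all detected rows. With TMM-scaled counts per kilobase it was 22.2%, below spo11.L at 26.3% and near the median of 20.7%. Crossover resolution was represented by mlh3.L, the endonuclease subunit, which had 9.29, 7.01 and 8.86 TPM, from 2508, 1866 and 2132 counts. Replicate 2, the high library for spo11.L, was the low library for mlh3.L.

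Several neighbours in the order of levels had overlapping ranges. Those of spo11.L and msh5.L overlapped, with spo11.L higher in 2 of 3 libraries and a gap of 0.58 ± 0.57 on the log2 scale (SD, n = 3). So did those of msh5.L and msh4.L, with msh5.L higher in 3 of 3 libraries, and those of mlh3.L and mei4.L. The gap of mlh3.L to mei4.L was 0.10 ± 0.24 on the log2 scale (SD, n = 3). The ranges did not overlap between meiob.L and spo11.L, a 3.07-fold gap, nor between msh4.L and mlh3.L, a 1.82-fold gap. The step from mei4.L to spo11.S was the widest, at 96.8-fold.

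The S copy of spo11 was close to silent in this tissue. Against 2085, 2873 and 1777 counts of spo11.L in replicates 1, 2 and 3, it gave 4, 5 and 5. The 14 counts of spo11.S have an exact 95% Poisson interval from 7.65 to 23.5, which covers counting error only. In TPM it stood at 0.0672, 0.0851 and 0.0900. The L copy exceeded it 392-fold, 432-fold and 267-fold per base of gene model in the 3 libraries, and 362-fold over their summed counts, with an exact counting interval from 215 to 662. The deposited gene lengths are 1205 bases for spo11.L and 906 bases for spo11.S, and the ratio is adjusted for them. Reads that fit both copies could have been dropped or given to either one, since the handling of such reads is not given in the sources used here.

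L and S copies were compared in edgeR by a quasi-likelihood fit of every pair with enough counts, blocked by library. At a Benjamini-Hochberg adjusted p under 0.05 over all pairs, that fit called 61.1% of 6627 pairs in either direction, 34.4% with L higher and 26.7% with S higher, against 30.7% and 30.9% when the L and S columns were scaled separately. For spo11, the only pair among the members, the fitted log2 ratio of L over S was 8.45. The pair entered the fit through its L copy alone, so it had to differ, and the ratio is given as a description without a test. Of those pairs, 9 combined an S copy under 0.1 TPM in every library with an L copy averaging at least 10 TPM, spo11 among them, and 2 showed the reverse. A fold of over 4 with L higher was called in 12.8% of pairs.

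**Figure D2:**
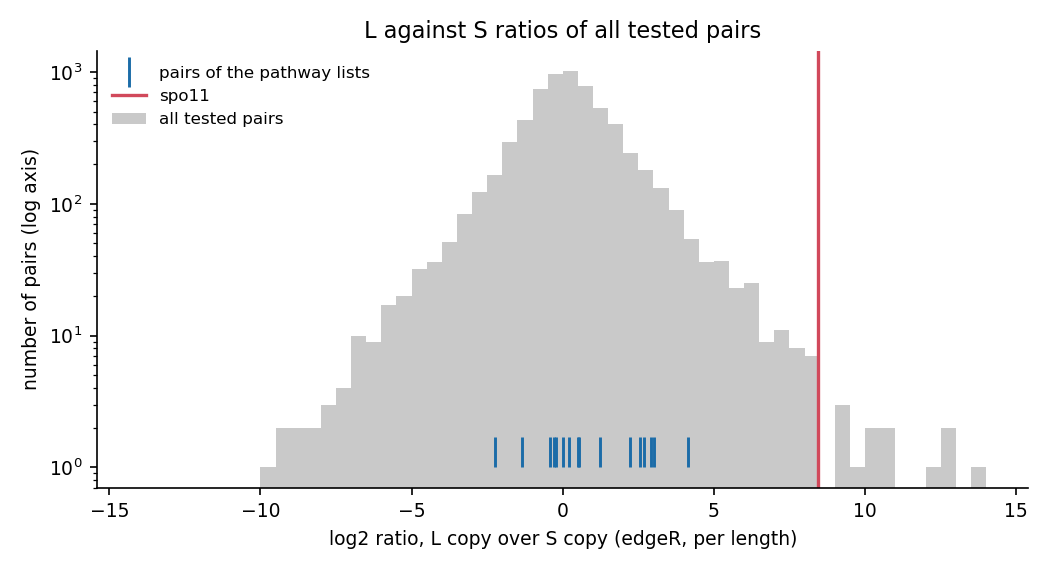
Number of L and S pairs (log axis) by their log2 ratio of L over S from the edgeR fit, for all 6627 tested pairs, with blue ticks for the 16 pairs of the pathway lists and a red line for spo11. The red line at 8.45 lies in the far right tail, beyond every blue tick, of which the highest, rpa3, is at 4.13.

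The genes next to spo11 on the chromosome had other ratios between their copies. Neighbours were looked up, after the values had been seen, in the NCBI gene table of Xenopus_laevis_v10.1 as the 2 nearest named protein-coding genes on each side. The gene 2 places before was tfap2c.L for spo11.L and rtf2.S for spo11.S, averaging 0.104 and 85.5 TPM. Neither has a row for its other copy, so no ratio is given for them. Both spo11 copies lie between bmp7.1 and rae1. The export factor gene rae1 went the other way, with 38.7, 56.9 and 59.8 TPM for rae1.L in replicates 1, 2 and 3, against 145, 270 and 218 TPM for rae1.S, a log2 ratio of -2.01 (SE 0.129, adjusted p = 0.000507, edgeR). The growth factor gene bmp7.1 averaged 1.18 TPM for L and 1.10 TPM for S and was not called (log2 ratio 0.18, SE 0.544, adjusted p = 0.792, edgeR), with values from -0.30 without replicate 3 to 0.80 without replicate 2. The RNA-binding protein gene rbm38, the next gene beyond rae1, averaged 4.02 TPM for L and 6.77 TPM for S and was not called either (-0.81, SE 0.311, adjusted p = 0.0730, edgeR). It passed when the L and S columns were scaled separately (adjusted p = 0.0450, edgeR).

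**Figure D3:**
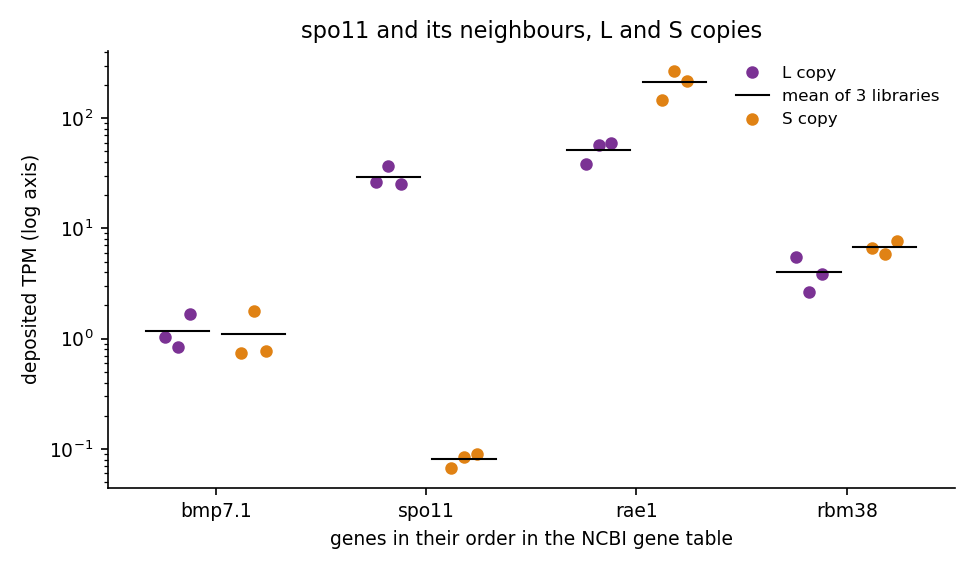
Deposited TPM on a log axis for the L copy (purple) and the S copy (orange) of bmp7.1, spo11, rae1 and rbm38, with 1 point per library and a bar at the mean. The spo11 copies average 29.4 and 0.0807 TPM, and rae1 has its S copy above its L copy, at 211 against 51.8 TPM.

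The other 6 members have an L row and no S row matched by symbol. Over the whole table, 6675 gene names have 1 copy only, and 73.6% of these copies are L. Among the 24 nearest named genes around these 6 members, 11 have rows for both copies. These neighbours were all reached through an L row. Over the whole table, 7764 names with an L row also have an S row and 4913 do not. Both copies were thus the more common case over the table but not among the 24, a difference that was not tested. Those around mei4.L all have both, for example hmgn3, the gene of a nucleosome-binding protein, at 62.4 TPM for L and 97.0 TPM for S (log2 ratio -0.64, adjusted p = 0.0121, edgeR; 0.0717 without replicate 3). Around dmc1.L, meiob.L and mlh3.L, 1 of 4 neighbours each has both, namely sun2, hagh and fos. An S copy carried under a locus identifier without a gene name would not have been matched, so a missing row does not show a lost gene.

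The partners of each step were described from lists of genes known for recombination. Of 120 such genes, 74 matched at least 1 row by symbol, giving 90 rows besides the members, and the other 46 were not analysed here. Detected were 89 of the 90, against 7 of the 8 members and 66.7% of all rows. Their median was 26.1 TPM. For break formation, only atm.L, the kinase gene that signals breaks, was matched, at 6.73 ± 1.32 TPM (SD, n = 3), and the direct partners of mei4, rec114 and iho1, had no row matched by symbol.

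In strand exchange, 18 of 18 rows were detected at a median of 13.9 TPM, below both dmc1.L and meiob.L. The highest were sfr1.L, for a recombinase accessory factor, at 135 ± 25.4 TPM, the motor gene rad54b.L at 86.6 ± 4.17, rad50.L, for a break-processing subunit, at 62.0 ± 21.6, and mcmdc2.L at 34.3 ± 5.78 (SD, n = 3). The gene psmc3ip.L, whose product assists DMC1, was detected too. Of the recombinase paralogs, 4 of 4 rows were detected, with a median of 17.0 TPM, xrcc3.L among them at 24.4 ± 2.58 TPM (SD, n = 3). The RPA subunits were detected in 5 of 6 rows, led by rpa3.L with 98.5, 73.2 and 80.3 TPM in replicates 1, 2 and 3, then rpa2.L at 74.9 ± 7.93 TPM and rpa1.L at 36.6 ± 6.34 TPM (SD, n = 3). The row rpa2.S had 71.3, 44.0 and 43.0 TPM. The row not detected was rpa3.S.

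The rows listed as partners of crossover selection had a median above the levels of msh4.L and msh5.L. All 11 were detected, at a median of 52.8 TPM. The highest were the kinase gene cdk2.S at 164 ± 25.8 TPM and the helicase gene mcm8.L at 104 ± 26.4 (SD, n = 3). Next were the ligase family genes rnf212b.L at 95.9 ± 13.2 and ccnb1ip1.L at 62.0 ± 9.63 TPM (SD, n = 3). The lowest of the 11 rows averaged 10.3 TPM. The mismatch repair genes of the same families passed the detection limit in all 4 rows (median 9.68 TPM), with msh6.L, a mismatch recognition subunit, at 37.4 ± 3.50 TPM, pms1.S at 10.4 ± 1.66 and pms2.L at 8.91 ± 1.33 (SD, n = 3).

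The rows listed as partners of crossover resolution, not all of them enzymes that cut joints, were detected in 17 of 17 cases at a median of 12.1 TPM. The level of mlh3.L, 8.39 ± 1.21 TPM, was below that median and above the lowest of these rows at 5.04 TPM. The 17 rows were led by ercc1.L at 37.5 ± 1.07 TPM, wrn.L at 22.1 ± 2.27, blm.S at 19.3 ± 3.26 and blm.L at 15.7 ± 1.77 TPM (SD, n = 3).

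The chromosome structures on which recombination takes place included the most abundant rows of these lists after dazl.L. The axis and cohesin rows, 13 of 13 detected, had a median of 62.9 TPM, led by sycp3.L at 258 ± 46.1, hormad1.S at 229 ± 23.2, mael.L at 177 ± 36.5 and smc3.L at 105 ± 16.5 TPM (SD, n = 3). The product of mael, although in that list, is known for the piRNA pathway and not as an axis or cohesin subunit. The single matched synaptonemal complex row, syce2.L, stood at 267 ± 45.6 TPM. Of the telomere attachment genes, sun1.L was at 106 ± 11.8 TPM, spdya.L at 77.6 ± 10.3 and sun1.S at 23.2 ± 4.14. Regulators of meiotic entry and progression were led by dazl.L at 1181 ± 133 TPM, ccna1.L at 167 ± 43.8, mybl1.S at 92.1 ± 27.5 and mybl1.L at 90.2 ± 12.9 (SD, n = 3).

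Of the 16 pathway genes with a tested pair, 8 had L higher and 1 had S higher at an adjusted p under 0.05 (edgeR), against 34.4% and 26.7% of all pairs. With the copies scaled separately these were 7 and 4, against 30.7% and 30.9% of all pairs, and with DESeq2 8 and 3. The ratio of rpa3 was 4.13 with an SE of 1.20 (adjusted p = 0.0314, edgeR), and it moved to 2.92 without replicate 2, below rbbp8 and ccna1, and to 5.36 without replicate 1. With L higher too were ccna1 at 3.02, rbbp8 at 2.92, rad50 at 2.70, rnf212b at 2.56 and sun1 at 2.21. The row rpa3.S gave 416, 3 and 171 counts in replicates 1, 2 and 3. Lower but called were smc3 at 1.23 and rpa2 at 0.54, of which rpa2 was lost without replicate 2 (adjusted p = 0.111), without replicate 3 (adjusted p = 0.153), without the block (adjusted p = 0.0521) and with the copies scaled separately (adjusted p = 0.0814, edgeR throughout). The kinase gene cdk2 had S higher, at -2.25 (SE 0.174, adjusted p = 0.000642, edgeR).

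Members were also set against a named counterpart within the same library, with L and S rows summed. The test for these 4 ratios was an exact permutation of signs, two-sided, whose smallest p with 3 libraries is 0.25. That p, reached by 2 of the 4, is 0.5 after Benjamini-Hochberg adjustment. The test can therefore call none of them, and the size and the count of libraries carry the description. The partners spata22 of meiob and rec114 of mei4 had no row matched by symbol.

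In strand invasion, the meiosis-specific gene was above its general relative in TPM but about level with it in counts. The gene meiob had 100.3, 93.0 and 75.4 TPM, against 77.3, 71.9 and 56.2 TPM for rpa1, the large subunit of the general single-strand binding complex. Both genes were lowest in replicate 3. Their log2 ratio of 0.39 ± 0.030 (SD, n = 3), or 1.31-fold, was positive in 3 of 3 libraries and had the smallest spread of the 4. Against the higher rpa1 copy alone, which leaves out the reads of the other copy, it was 1.29 ± 0.13 (SD, n = 3). The counts were 9312, 8527 and 6245 for meiob.L. They were 5267, 4080 and 3404 for rpa1.L and 4045, 4473 and 2630 for rpa1.S. The gap in TPM thus rests on the deposited lengths, 1413 bases for meiob.L against 1830 and 1836 for the rpa1 rows.

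Between the clamp subunits, msh4 was below msh5 in 3 of 3 libraries by 0.35 ± 0.37 on the log2 scale (SD, n = 3), with the ratio at -0.77, -0.04 and -0.24 in replicates 1, 2 and 3. The gap was thus wide in replicate 1 and almost absent in replicate 2, and with 1 library left out it lay between -0.50, without replicate 2, and -0.14, without replicate 1.

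The gene mlh3 had 9.29, 7.01 and 8.86 TPM in replicates 1, 2 and 3, against 10.3, 8.71 and 7.68 TPM for pms2, a mismatch repair gene of the same family, which averaged 8.91 ± 1.33 TPM. Their log2 ratio of -0.09 ± 0.27 was smaller than its spread, with mlh3 lower in 2 of 3 libraries (p = 0.75, exact sign-flip permutation test), and it changed sign to 0.027 without replicate 2. The gene spo11 averaged 29.5 ± 6.39 TPM over its copies, against 40.0 ± 6.37 TPM for top2a, the topoisomerase of dividing cells, and was lower in 2 of 3 libraries (log2 ratio -0.45 ± 0.49, p = 0.5, exact sign-flip permutation test), with values from -0.72 without replicate 2 to -0.26 without replicate 1.

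**Figure D4:**
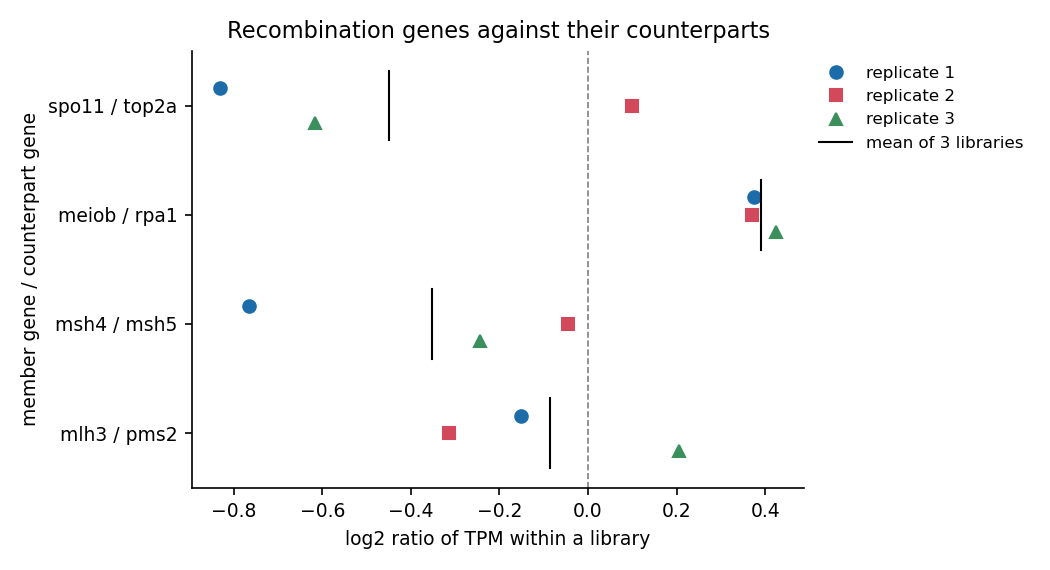
Log2 ratio of TPM within each library for 4 pairs of a gene of meiotic recombination and its counterpart, with 1 point per library and a bar at the mean; values right of the dashed line mean a higher level of the gene named first. All points of meiob over rpa1 lie right of the line and all points of msh4 over msh5 left of it, while those of spo11 over top2a and mlh3 over pms2 lie on both sides.

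Between libraries the members did not move as a block. On log2(CPM + 0.5), centred on each row's own mean, spo11.L was at -0.25, 0.41 and -0.15 in replicates 1, 2 and 3, and msh5.L at 0.34, -0.11 and -0.23. The row mlh3.L, at 0.04, -0.18 and 0.14, had its low where spo11.L and msh4.L had their high. The median of the detected pathway rows was 0.04, 0.04 and -0.10, that of the spermatid markers -0.19, 0.23 and 0.03, and that of the spermatogonia markers 0.17, -0.15 and -0.08. The smooth muscle and peritubular markers stood at -1.49, 0.18 and 1.31, and the Leydig markers at -0.62, -0.0055 and 0.45. The leukocyte markers stood at -0.37, -0.23 and 0.65, and the erythrocyte markers at -0.01, 0.27 and -0.64. The part of tissue makeup in the members' values was not tested.

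**Figure D5:**
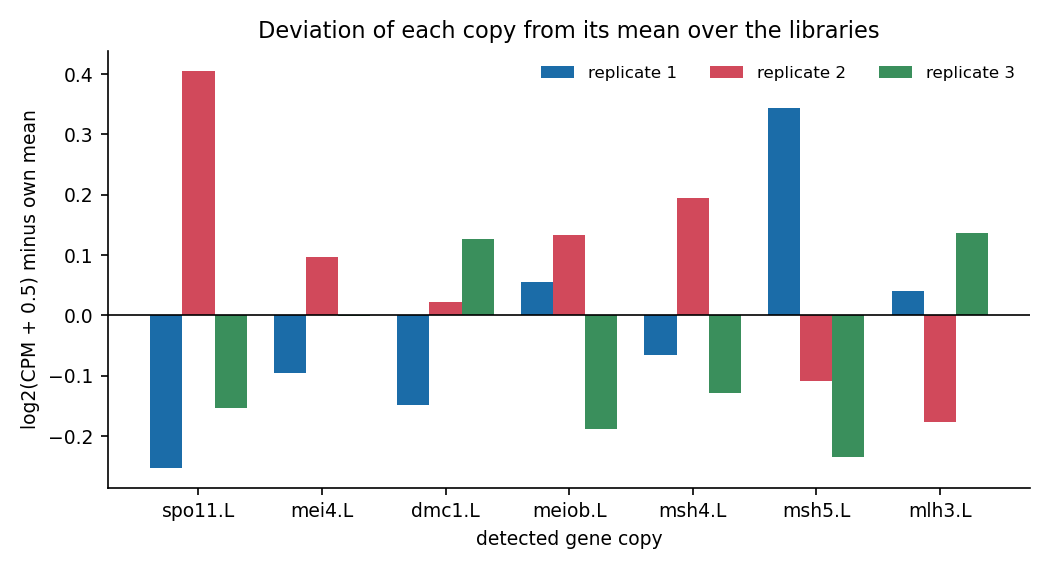
Deviation of log2(CPM + 0.5) from the row's own mean for the 7 detected copies, with 1 bar per library. The widest bars are replicate 2 of spo11.L at 0.41 and replicate 1 of msh5.L at 0.34, while all bars of mei4.L stay within 0.10 of 0.

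Likeness to other rows was measured as the Euclidean distance between these centred values over the 3 libraries, among the 89 detected pathway rows. With 3 libraries many rows are close by, so the share of all detected rows that lay nearer is given as well. The nearest of 89 rows is picked as a minimum, so a small share can arise without any likeness, which was not tested. The row nearest to msh4.L was sun1.L, with 0.0648% of all detected rows nearer, followed by dazl.L and rec8.L. For spo11.L these were ccnb3.L, rmi2.L and sfr1.L, with 0.281% of rows nearer than the first. For mei4.L they were eme2.L, ercc1.L and helq.S (4.31%), and for dmc1.L tex11.L, brca2.L and helq.S (0.397%). Those of meiob.L were recql5.L, eme1.L and ccnb1ip1.L (1.26%), those of msh5.L recql.L, rpa2.S and xrcc2.S (0.263%), and those of mlh3.L smc1a.L, rnf212b.S and sun1.S (0.518%). No row was the nearest of more than 1 member.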

How the data were processed

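The authors deposited whole-number counts and a gene length in bases for 34694 rows, made with HISAT2 and featureCounts per the submitters' processing notes. Strand setting, counted feature, multi-mapping rule and versions: not given in the sources used here. No coordinates are printed, since the build is named only by digits in the table's name. The authors' TPM is the count per length scaled to a total near 1000000. Lengths are multiples of 3 in 90.9% of rows and were read as coding lengths. Those of spo11.L (1205 bases) and mlh3.L (4105 bases) are not multiples of 3, so that reading is uncertain for them. Columns were matched to libraries by the processing dates heading them.

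CPM used TMM factors from edgeR 4.0.16. Pairs with L and S together at 1 CPM or more in all libraries entered one edgeR quasi-likelihood model of counts, with an offset of effective library size times length and the library, which both copies share, as a block. The SE is the absolute log2 ratio over the square root of F. The test was tried on simulated counts with far fewer changed pairs than were called here, so that trial does not vouch for these calls. Alternatives used DESeq2 1.42.0 and limma 3.58.1.

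The members, lists and tests were chosen with earlier results of these data known. Named are all member rows and pairs, their fixed counterparts and the 3 nearest rows of each member. Each pathway list adds up to 4 detected rows of highest TPM and up to 2 called pairs per direction. Named after their values were seen were psmc3ip, rec114, iho1 and the chromosomal neighbours. Some genes that this rule would name are not reported here.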

Additional observations from a re-analysis of the deposited data

How the results depend on the processing

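The 8 member rows and their summed TPM stayed within 1 SD of the values given under TMM scaling per kilobase, and the coefficients of variation under it, given above, were added after the data were seen. The 7 detected members remained 7 with minimums of 0.1, 1 and 5 CPM, with DESeq2 size factors and without any 1 library, and the detected pathway rows numbered from 84, at 5 CPM, to 90, without replicate 2. The spo11 ratio ranged from 8.30 to 8.86 on the log2 scale over all alternatives and was 8.47 with no replicate block, where 3758 pairs were called in place of 4049. Pairs called numbered from 3179 to 3546 with 1 library left out, and from 3529 to 4328 under the remaining settings. Scaling the copies separately moved the median of all pairs to -0.0031, against 0.15, and then 7 pathway pairs had L and 4 had S higher. With the DESeq2 test these were 8 and 3. Of the ratios to counterparts, only mlh3 to pms2 changed sign. That ratio was -0.09 over all 3 libraries and ranged from -0.23 to 0.027 when 1 library was left out. With 14 counts, the level of spo11.S is limited by depth.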
